A study of Mus musculus with 16 samples.

Results

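Genome-wide association and sequencing studies of human Alzheimer's disease (AD) have named a set of risk genes whose mouse orthologs can be followed in an animal model. The genes described here are 10 of these orthologs, taken by name from the deposited count table: Sorl1, Bin1, Clu, Picalm, Abca7, Cd2ap, Plcg2, Inpp5d, Ptk2b and Fermt2. All 10 are among the 55335 genes of the table, and all 10 passed the filter on low counts that left 16475 genes for testing. The rule used their names and none of their values, though the names were chosen with earlier results of these data known.

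On GRCm38, Sorl1 lies at chr9:41964720-42124297 on the minus strand and Picalm at chr7:90130213-90213465 on the plus strand. Bin1 lies at chr18:32377230-32435737 (plus), Cd2ap at chr17:42792951-42876665 (minus) and Abca7 at chr10:79996494-80015572 (plus). Chromosome 14 holds 3 of the genes, Clu at chr14:65968483-65981547 (plus), Ptk2b at chr14:66153257-66281052 (minus) and Fermt2 at chr14:45458795-45530118 (minus). Plcg2 lies at chr8:117498291-117635142 and Inpp5d at chr1:87620312-87720507, both on the plus strand.

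The proteins fall into a few working groups. SORL1 is a sorting receptor of the VPS10 family that, with the retromer complex, returns cargo such as the amyloid precursor protein from endosomes to the trans-Golgi network. PICALM, BIN1 and CD2AP act at the clathrin-coated pit, on curved membranes and at the actin cytoskeleton. Clusterin (Clu, also called apolipoprotein J) is a secreted chaperone carried on lipoprotein particles and made in brain mainly by astrocytes, and ABCA7 is a membrane transporter that moves phospholipids. PLCG2, a phospholipase, and INPP5D (SHIP1), an inositol phosphatase, work on phosphoinositides downstream of immune receptors and in the brain are found mainly in microglia. PTK2B (Pyk2) is a calcium-responsive kinase of the focal adhesion family that is abundant in hippocampal neurons, and FERMT2 (kindlin-2) activates integrins at focal adhesions.

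RNA was sequenced from the hippocampus of 16 female mice, 4 in each of 4 groups, all aged 10 months and all infused into the brain ventricle for 28 days. WT-D and 3xTg-D mice received the vehicle (0.8% DMSO in artificial cerebrospinal fluid), and WT-S and 3xTg-S mice received an inhibitor of stearoyl-CoA desaturase (SCDi; CAY10566, 80 µM), the enzyme that makes monounsaturated fatty acids. WT mice came from crosses of C57BL/6J with 129S1. 3xTg mice carry the human APPSwe and tauP301L transgenes, which the Thy1.2 regulatory element drives in neurons, and the Psen1tm1Mpm knock-in allele, so these groups differ in 3 alleles at once and in whatever flanks them. Whether the 4 mice of a group were littermates is not given in the sources used here, and p-values measure the spread between these mice.

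Each library held 15413385 to 23590149 reads on genes, and another 7.82% to 15.1% of the uniquely mapped reads fell outside them. Markers of hippocampal subfields were detected in every group, for instance Prox1 of dentate granule cells at 115 to 131 CPM (counts scaled to library size) and Wfs1 of CA1 at 81.5 to 99.3 CPM by group mean. The mean log2 CPM of 10 subfield markers was 6.25 in WT-D and WT-S, and 6.07 in 3xTg-D and 3xTg-S. Single markers went both ways. C1ql2 was at 39.7 and 38.5 CPM in WT-D and WT-S against 19.7 and 16.2 in 3xTg-D and 3xTg-S. Mpped1 was at 159 and 175 CPM against 176 and 184. The part of subfield markers in the results below was not tested. Among 10 choroid plexus markers, 7 were tested, and their mean log2 CPM spanned 0.90 to 4.45 (WT-D) and 0.84 to 3.48 (WT-S) among WT mice, and 0.65 to 1.69 (3xTg-D) and 0.40 to 1.29 (3xTg-S) among 3xTg mice. Group means of Ttr were 173 CPM for WT-D and 63.8 CPM for WT-S mice, against 5.84 CPM for 3xTg-D and 2.92 CPM for 3xTg-S mice. Not all markers ordered the groups in that way: between WT-S and 3xTg-S mice, Kl was at 25.7 and 27.1 CPM and Prlr at 6.01 and 6.36 CPM. Their part in the results below was not tested beyond a fit with the choroid score as covariate. A pair of mice stood apart on 12 microglial markers: WT-D mouse 1 and 3xTg-D mouse 2 had mean log2 CPM of 5.79 and 5.94, against 4.57 to 5.14 in the other 14. In bulk RNA, more cells of a type and more RNA per cell cannot be told apart.

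To show the regulatory sequence in front of these genes, the 250 bases before the transcription start were read from RefSeq promoters on GRCm38.p6, in which 7 of the 10 genes were matched (Sorl1, Picalm, Abca7, Cd2ap, Plcg2, Inpp5d and Fermt2). Clu and Ptk2b had no entry, and Bin1 was not looked up. The RefSeq start lay 241 bases from the Gencode start for Cd2ap, 53 for Fermt2 and 16 for Plcg2. The Cd2ap window lies mostly, and the Fermt2 window partly, inside the Gencode gene. The 4 windows printed belong to the pairs of members with a positive Pearson r above 0.65 across mice. These are Sorl1 with Abca7 (r = 0.846, rho = 0.794) and Plcg2 with Inpp5d (r = 0.682, rho = 0.438). A link between these sequences and the levels was not tested. Sequences run 5′ to 3′ on the gene's own strand, and capitals mark the E-box CACGTG or the PU.1 core GAGGAAGT, both searched on both strands.
Sorl1 promoter, chr9:42124298-42124547, minus strand: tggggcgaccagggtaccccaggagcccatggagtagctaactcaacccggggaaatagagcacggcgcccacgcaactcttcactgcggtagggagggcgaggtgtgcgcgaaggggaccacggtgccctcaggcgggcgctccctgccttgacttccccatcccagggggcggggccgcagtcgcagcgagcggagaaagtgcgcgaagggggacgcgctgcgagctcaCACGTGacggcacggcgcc
Abca7 promoter, chr10:79996244-79996493, plus strand: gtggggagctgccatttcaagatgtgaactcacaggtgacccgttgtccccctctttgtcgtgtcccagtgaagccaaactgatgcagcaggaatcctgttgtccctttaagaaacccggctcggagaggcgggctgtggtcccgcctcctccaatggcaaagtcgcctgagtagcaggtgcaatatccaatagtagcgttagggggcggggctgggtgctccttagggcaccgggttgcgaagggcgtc
Plcg2 promoter, chr8:117498025-117498274, plus strand: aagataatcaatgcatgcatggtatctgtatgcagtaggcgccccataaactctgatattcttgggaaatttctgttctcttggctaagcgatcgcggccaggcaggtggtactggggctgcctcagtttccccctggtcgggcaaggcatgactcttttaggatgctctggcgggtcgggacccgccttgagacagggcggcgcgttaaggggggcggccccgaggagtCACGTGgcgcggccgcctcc
Inpp5d promoter, chr1:87620062-87620311, plus strand: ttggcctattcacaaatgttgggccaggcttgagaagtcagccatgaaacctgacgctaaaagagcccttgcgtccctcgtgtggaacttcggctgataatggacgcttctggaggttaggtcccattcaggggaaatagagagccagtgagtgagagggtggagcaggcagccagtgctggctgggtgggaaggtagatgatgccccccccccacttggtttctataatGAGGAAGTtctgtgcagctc

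CACGTG is the palindromic site of basic helix-loop-helix factors, and it was found in 3 of the 7 windows: 19 bases before the start in Sorl1, 20 before it in Plcg2 and 191 before it in Picalm. It occurs in 6.02% of all 32851 promoters of the same length. GAGGAAGT, the core bound by the myeloid factor PU.1, was found only in the window of Inpp5d, 20 bases before the start, and occurs in 2.44% of all promoters. The window of Abca7 held neither. The Sorl1 window held 26 CpG dinucleotides, that of Plcg2 17, that of Abca7 12 and that of Inpp5d 5, where the median of all promoters was 6.

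The genes spanned a wide range of expression. Levels were compared between genes per length, as CPM per kb of merged exons, over all 16 mice. Clu was highest at 225 ± 34.3 CPM per kb (SD, n = 16), above 99.6% of the tested genes with a known length. Ptk2b followed at 109 ± 9.01, then Bin1 at 46.5 ± 2.29, Sorl1 at 35.1 ± 4.70, Fermt2 at 20.9 ± 1.66 and Picalm at 15.4 ± 0.483 CPM per kb. Each of these 6 genes was above the next in all 16 mice, although the ranges of Bin1 and Sorl1, and of Sorl1 and Fermt2, overlapped between mice. The other 4 were low and close together: Cd2ap at 1.86 ± 0.195, Abca7 at 1.77 ± 0.414, Inpp5d at 1.71 ± 0.458 and Plcg2 at 1.51 ± 0.393 CPM per kb, above 30.6% to 34.3% of tested genes. Their order was not settled, since Cd2ap exceeded Abca7 in 9 of 16 mice and Abca7 exceeded Inpp5d in 8 of 16. Scaling by the longest transcript instead put Inpp5d above Abca7 and left the other 8 ranks in place.

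The abundant endocytic genes also varied least between mice of one group. The within-group SD of Picalm was 0.05 on the log2 CPM scale, lower than in all but 0.504% of tested genes, and that of Bin1 was 0.07, at the 4.24th percentile. The SD of Fermt2 was 0.10 and that of Ptk2b 0.13, both below the median of 0.17 over tested genes. Cd2ap at 0.17, Clu at 0.19 and Sorl1 at 0.20 were near it. Plcg2 (0.31), Inpp5d (0.34) and Abca7 (0.35) varied most, with 96 to 285, 166 to 505 and 164 to 323 reads per mouse.

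**Figure D1:**
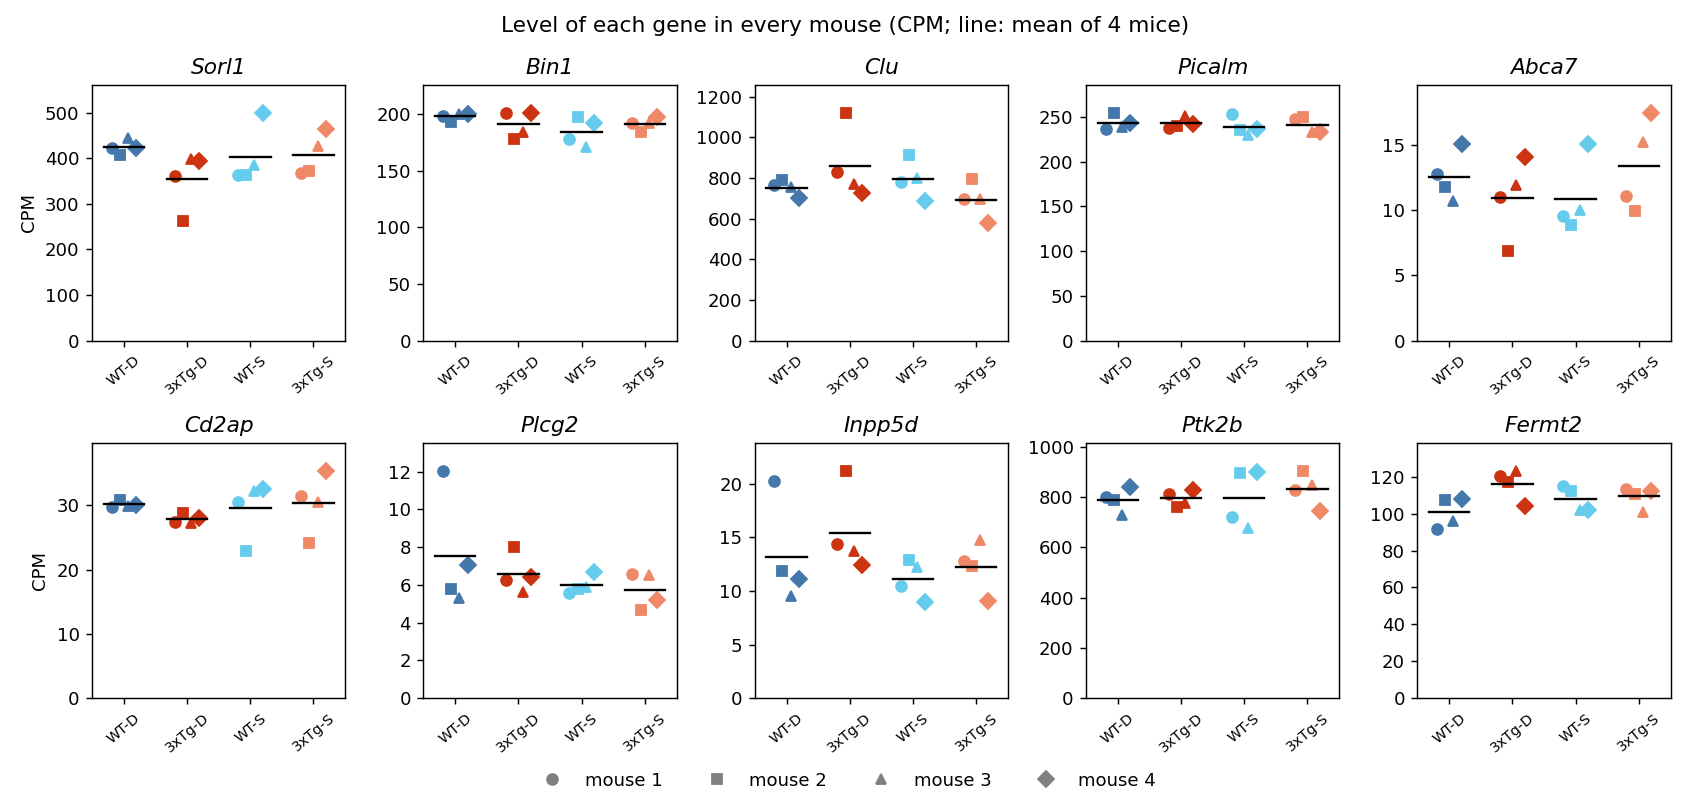
Level of each of the 10 genes in every mouse, in CPM on axes that start at 0, with one panel per gene, groups along the x axis, marker shapes for the replicate number and a line at the mean of 4 mice. Group means lie close together in most panels, and single mice stand out: 3xTg-D mouse 2 is lowest for Sorl1 (263 CPM) and highest for Clu (1118 CPM), and WT-D mouse 1 is highest for Plcg2 (12.04 CPM).

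The first comparison asked which of these genes differ in the 3xTg hippocampus without treatment. No member was a DEG in WT-D vs 3xTg-D by edgeR's quasi-likelihood test with the study's threshold (p of 0.01 or less, unadjusted), where 4.91% of the 16475 tested genes were (809 genes). At an unadjusted p under 0.05 there were 3 members, Sorl1, Cd2ap and Fermt2, against 12.6% of all tested genes, and DESeq2's likelihood ratio test called 0 members at the 0.01 threshold. In size, the members' median absolute log2 fold change was 0.20, beside 0.10 over all tested genes, with 4 of them higher and 6 lower in 3xTg-D mice. The members' median was below that of all genes in WT-S vs 3xTg-S (0.04 beside 0.12), WT-D vs 3xTg-S (0.07 beside 0.11) and the interaction (0.14 beside 0.15), and above it in 3xTg-D vs 3xTg-S (0.16 beside 0.11) and WT-D vs WT-S (0.09 beside 0.08).

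Sorl1 was measured at 423, 407, 443 and 422 CPM in the 4 WT-D mice and at 360, 263, 398 and 394 CPM in the 4 3xTg-D mice. Every 3xTg-D mouse lay below every WT-D mouse, and mouse 2 lay far below the other 3. The means were 424 ± 15 and 354 ± 62.8 CPM (SD, n = 4 each), a log2 fold change of -0.26 (SE 0.11), with an edgeR adjusted p = 0.364. Without 3xTg-D mouse 2 the log2 fold change was -0.14, again short of the threshold. Cd2ap, which links membrane receptors to actin, was the other member whose groups did not overlap, with 29.7, 30.7, 29.9 and 30.1 CPM in WT-D and 27.3, 28.7, 27.2 and 28.1 CPM in 3xTg-D. Its difference was small, at a log2 fold change of -0.11 (SE 0.05, edgeR adjusted p = 0.378). Groups without overlap were seen for 8.17% of all tested genes.

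Fermt2 lay at 91.7, 108, 96.0 and 108 CPM in WT-D and at 120, 117, 123 and 104 CPM in 3xTg-D. The first 3 of the 3xTg-D values were above all WT-D values, and mouse 4 lay among them. The log2 fold change was 0.21 (SE 0.07, edgeR adjusted p = 0.262), and it passed the unadjusted threshold of 0.01 when 3xTg-D mouse 4 was left out (log2 fold change 0.25), though not the adjusted one. Clu was at 763, 790, 754 and 701 CPM in WT-D and at 831, 1118, 769 and 725 CPM in 3xTg-D. The high mean of 3xTg-D rested on mouse 2, and the log2 fold change of 0.20 (SE 0.12, edgeR adjusted p = 0.544) became 0.04 without it.

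Limits on a difference were narrow for Picalm, Cd2ap, Bin1 and Ptk2b. The fold of 3xTg-D over WT-D was 0.999 for Picalm (95% interval 0.931 to 1.07), 0.925 for Cd2ap (0.858 to 0.998), 0.966 for Bin1 (0.892 to 1.05) and 1.01 for Ptk2b (0.926 to 1.10). For the microglial genes the intervals were wide, at 0.597 to 1.27 for Plcg2 and 0.807 to 1.70 for Inpp5d, so that folds inside these bounds were not excluded. 
Single mice set the values of the scarce genes. Plcg2 was at 12.04, 5.81, 5.30 and 7.05 CPM in WT-D and at 6.26, 8.01, 5.63 and 6.43 CPM in 3xTg-D, so that WT-D mouse 1 exceeded all others and the rest overlapped. Its log2 fold change was -0.20 (SE 0.25, edgeR adjusted p = 0.792), and 0.12 without WT-D mouse 1. Inpp5d was at 20.3, 11.8, 9.51 and 11.1 CPM in WT-D, with the high value again in mouse 1, and its log2 fold change of 0.23 became 0.52 without that mouse and 0.03 without 3xTg-D mouse 2. Abca7 was at 12.76, 11.8, 10.7 and 15.1 CPM in WT-D and at 10.99, 6.88, 11.9 and 14.1 CPM in 3xTg-D, with overlapping groups and the lowest value in 3xTg-D mouse 2. The fold of Abca7 was 0.869 (95% interval 0.645 to 1.17), and its log2 fold change of -0.20 became -0.03 without that mouse. With the share of reads outside genes as a covariate in WT-D vs 3xTg-D, the log2 fold change of Sorl1 was -0.15, that of Clu 0.0255 and that of Abca7 -0.00065.

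Over all 16 mice, Picalm stayed within 230 to 254 CPM, Bin1 within 171 to 201 CPM and Ptk2b within 676 to 904 CPM. The values of Bin1 and Ptk2b that lay farthest below their means were in WT-S mouse 3.

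**Figure D2:**
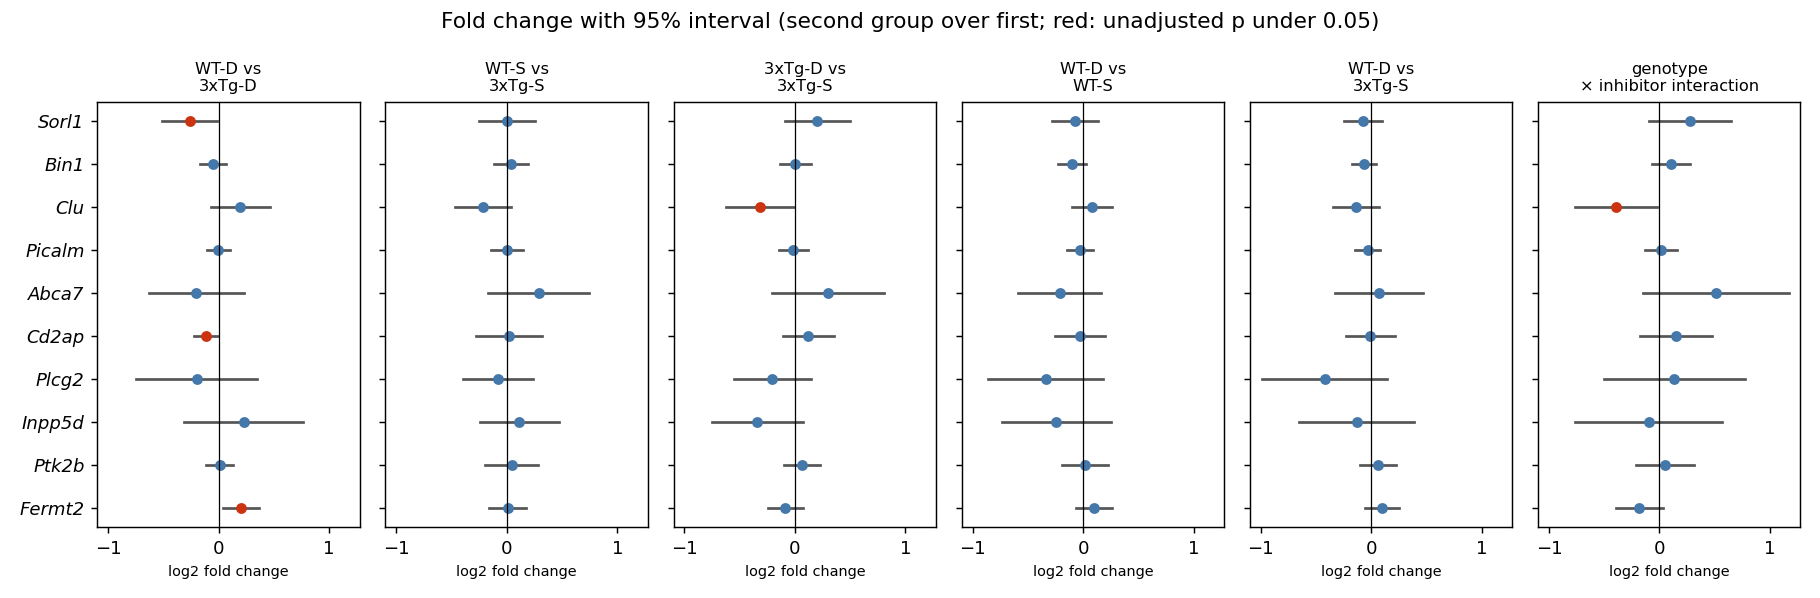
Log2 fold change of each gene (points) with its 95% interval (lines) in the 5 pairwise comparisons and the interaction of genotype and inhibitor, with the second group named over the first and red points for an unadjusted p under 0.05. Most intervals span 0. The red points are Sorl1, Cd2ap and Fermt2 in WT-D vs 3xTg-D, and Clu in 3xTg-D vs 3xTg-S and in the interaction.

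The second comparison asked what SCDi did to these genes in 3xTg mice. No member was a DEG in 3xTg-D vs 3xTg-S by edgeR or by DESeq2, beside 0.904% of all tested genes by edgeR, and 1 member, Clu, had an unadjusted p under 0.05 (6.33% of tested genes). Clu was at 696, 796, 698 and 577 CPM in the 4 3xTg-S mice, with means of 861 ± 177 CPM in 3xTg-D and 692 ± 89.8 CPM in 3xTg-S (SD, n = 4 each). Mouse 2 was the highest of its group in both, and the groups overlapped. The log2 fold change was -0.32 (SE 0.14, edgeR adjusted p = 0.722), and -0.18 without 3xTg-D mouse 2.

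Sorl1 was at 367, 372, 427 and 464 CPM in 3xTg-S, and 2 of these mice were above every 3xTg-D mouse. The log2 fold change from 3xTg-D was 0.20 (SE 0.13, edgeR adjusted p = 0.730), and 0.07 without 3xTg-D mouse 2. Inpp5d was at 14.4, 21.2, 13.7 and 12.4 CPM in 3xTg-D and at 12.75, 12.35, 14.77 and 9.07 CPM in 3xTg-S. Its log2 fold change was -0.34 (SE 0.19, edgeR adjusted p = 0.722), and -0.16 without 3xTg-D mouse 2, the mouse with the highest microglial score. For Picalm the fold of 3xTg-S over 3xTg-D was 0.991 (95% interval 0.907 to 1.08) and for Bin1 it was 1.00 (0.910 to 1.11).

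The remaining comparisons gave no member either. In WT-S vs 3xTg-S, 0 of 10 members were DEGs by edgeR and by DESeq2 and 0 had an unadjusted p under 0.05, beside 4.26% and 10.7% of all tested genes. The largest difference in size was that of Abca7, at 10.9 ± 2.84 CPM in WT-S and 13.4 ± 3.51 in 3xTg-S (SD, n = 4 each; log2 fold change 0.29, SE 0.21, edgeR adjusted p = 0.676). In WT-D vs WT-S, which asks what SCDi did in WT mice, 0 of 10 were DEGs by either tool and 0 had an unadjusted p under 0.05, beside 0.188% and 2.25% of tested genes. Sorl1 in the WT-S mice was at 364, 363, 384 and 498 CPM, and the first 3 lay below every WT-D mouse while mouse 4 lay above. Leaving out WT-S mouse 4 gave Sorl1 a log2 fold change of -0.19 in place of -0.08, and Abca7 one of -0.40 in place of -0.21, and both then passed the unadjusted threshold of 0.01 and not the adjusted one.

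In WT-D vs 3xTg-S, which the study used to sort 3xTg DEGs into those restored and those maintained under SCDi, 0 of 10 members were DEGs by edgeR and DESeq2 and 0 had an unadjusted p under 0.05, beside 5.69% and 13.1% of tested genes. No member therefore fell into the Restored, Maintained or New class, which held 374, 435 and 502 of the tested genes by edgeR. This comparison shares the WT-D mice with the first.

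A test of the interaction asked whether SCDi acted differently in the 2 genotypes. It called 0 of 10 members by edgeR and by DESeq2, beside 0.595% of tested genes by edgeR, and 1 member, Clu, had an unadjusted p under 0.05 (4.98% of tested genes). The effect of SCDi on Clu was 0.08 in WT and -0.32 in 3xTg mice on the log2 scale, a difference of -0.39 (SE 0.17, edgeR adjusted p = 0.788). Clu in WT-S mice was at 782, 913, 798 and 686 CPM. Without 3xTg-D mouse 2 the difference was -0.26. The estimate for Abca7 was 0.51 (SE 0.31) and that for Sorl1 0.28 (SE 0.18), both with an edgeR adjusted p = 0.788.

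Several members moved together from mouse to mouse. Over the 16 mice, log2 CPM of Sorl1 and Abca7 had a Pearson r of 0.846, those of Sorl1 and Clu -0.847, and those of Clu and Abca7 -0.900, which became 0.900, -0.890 and -0.914 with the group means removed. Plcg2 and Inpp5d had an r of 0.682 (Spearman's rho 0.438). These 4 were the pairs of the 45 with an absolute r above 0.65, and they are given as a description without p, since genes of one library share its depth and composition. Sorl1 with Inpp5d (-0.643) and Clu with Inpp5d (0.634) lay just below that cut. By rank, Sorl1 with Fermt2 (rho -0.629) and Clu with Cd2ap (rho -0.612) exceeded Plcg2 with Inpp5d in size. Whether the latter pair's r rests on WT-D mouse 1 and 3xTg-D mouse 2 was not tested. Clu was highest and Sorl1 and Abca7 lowest in the same animal, 3xTg-D mouse 2, and within WT mice alone the r were 0.805 for Sorl1 with Abca7, -0.800 for Sorl1 with Clu and -0.869 for Clu with Abca7.

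The genes most like each member across the 16 mice were named by the highest r. For Sorl1 they were Slc24a2 (0.961), a potassium-dependent sodium-calcium exchanger, Nfasc (0.956), the axonal adhesion protein neurofascin, Atrn (0.951), Arfgef2 (0.934) and Plxna4 (0.928). For Clu it was Apoe (0.955), the main apolipoprotein of brain, and for Inpp5d it was C1qb (0.949), a complement component of microglia. Plcg2 was most like Nlrc5 (0.920), a regulator of MHC class I genes, Abca7 like Ankrd52 (0.945), Bin1 like Sh3glb2 (0.873), Ptk2b like Mapre3 (0.886), Cd2ap like A330102I10Rik (0.894), Fermt2 like 3300002P13Rik (0.802) and Picalm like Smarca5 (0.799).

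Measures of the libraries were set beside these levels, in 20 relations of the 10 members with the share of reads outside genes and with the microglial score. The permutation tests were two-sided with Benjamini-Hochberg adjustment over the 20, and treated mice as exchangeable. Clu was lower in libraries with more reads outside genes (r = -0.809, rho = -0.871, permutation p = 0.00024 and 6e-05, adjusted 0.0024 and 0.0012), and r was -0.821 without the 2 farthest mice. Abca7 ran the other way (r = 0.776, rho = 0.779, permutation p = 0.00055 and 0.00071, adjusted 0.00275 and 0.00473; r = 0.736 without the 2 farthest mice), as did Sorl1 (r = 0.649, rho = 0.638, permutation p = 0.00759 and 0.00963, adjusted 0.0217 and 0.0241; r = 0.657 without them). Cd2ap also ran upward (r = 0.773, rho = 0.653, permutation p = 0.00037 and 0.00723, adjusted 0.00247 and 0.0207; r = 0.597 without the 2 farthest mice). Within replicate numbers r was -0.553 for Clu, 0.467 for Abca7, 0.371 for Sorl1 and 0.637 for Cd2ap. Such relations were common: 9.19% of tested genes had an absolute r at least as large as Clu, 12.3% as large as Abca7, 12.5% as large as Cd2ap and 25.4% as large as Sorl1.

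Inpp5d followed the microglial score closely (r = 0.930, rho = 0.747, permutation p = 1e-05 and 0.00138, adjusted 2e-04 and 0.0069), where 1e-05 is the smallest p that the permutations can give. Without the 2 farthest mice r was 0.813, within WT mice 0.992 and within 3xTg mice 0.886, and 0.146% of tested genes had an absolute r as large. Plcg2 had an r of 0.661 and a rho of 0.191 with the score (permutation p = 0.0123 and 0.477, adjusted 0.0307 and 0.561), and r was -0.0979 without the 2 farthest mice, so this relation rested on them. Sorl1 ran against the score (r = -0.707, rho = -0.694, permutation p = 0.00384 and 0.00348, adjusted 0.0128 and 0.0139; r = -0.877 without the 2 farthest mice), with -0.275 within WT and -0.981 within 3xTg mice. Clu ran with it (r = 0.720, rho = 0.791, permutation p = 0.00298 and 0.00043, adjusted 0.0119 and 0.0043; r = 0.720 without the 2 farthest mice), with 0.289 within WT and 0.979 within 3xTg mice. Abca7 ran against it (r = -0.576, rho = -0.606, permutation p = 0.0205 and 0.0149, adjusted 0.0456 and 0.0330; r = -0.614 without the 2 farthest mice), with -0.0508 within WT and -0.952 within 3xTg mice. The difference between genotypes was not tested for any of them. An absolute r with the microglial score at least as large was seen in 3.39% of tested genes for Sorl1 and 2.91% for Clu. For Plcg2 and Abca7 these shares were 5.66% and 13.6%. For Cd2ap, rho was -0.665 (permutation p = 0.00628, adjusted 0.0207) while r was -0.330 (permutation p = 0.208, adjusted 0.347). Within replicate numbers, r with the microglial score was 0.931 for Inpp5d, 0.818 for Plcg2 and 0.603 for Clu. It was -0.521 for Sorl1, -0.267 for Abca7 and -0.0353 for Cd2ap. The mean log2 CPM of 10 astrocyte markers was also highest in 3xTg-D mouse 2 (8.45) and lowest in 3xTg-S mouse 4 (7.78). These mice had the most and the least Clu, at 1118 and 577 CPM. Relations with the astrocyte markers were not tested.

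**Figure D3:**
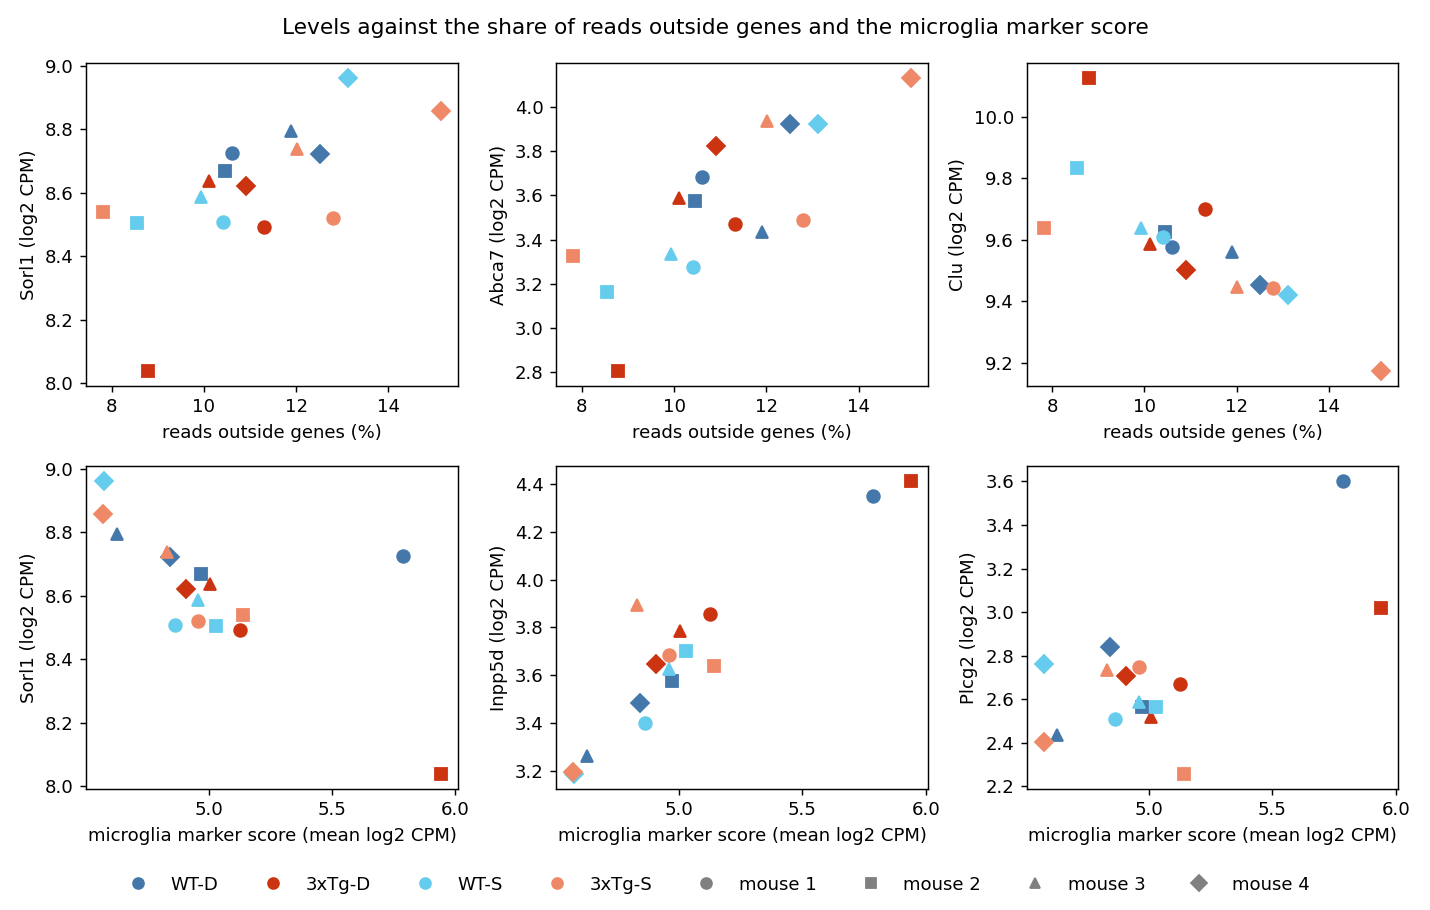
Log2 CPM of Sorl1, Abca7 and Clu against the percent of reads outside genes (upper row), and of Sorl1, Inpp5d and Plcg2 against the mean log2 CPM of 12 microglial markers (lower row), 1 point per mouse, coloured by group and shaped by replicate number. Clu runs down (r = -0.809) and Abca7 up (r = 0.776) as reads outside genes increase, Inpp5d runs up with the microglial score (r = 0.930), and the Plcg2 panel has WT-D mouse 1 (12.04 CPM) far above the rest.

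Other risk gene orthologs were read from a list of 60, of which 52 were tested. The list was chosen with earlier results of these data known, so its share of DEGs is only a description. In WT-D vs 3xTg-D, 2 were higher and 3 lower, 9.62% beside 4.91% of all tested genes, with a list median log2 fold change of 0.01 and 0.00 over all genes. Wwox, which encodes a WW-domain oxidoreductase, fell from 34.4 ± 3.06 to 14.9 ± 0.848 CPM (SD, n = 4 each; log2 fold change -1.20, edgeR adjusted p = 2.01e-05). Its 16 values did not overlap between genotypes, at 29.9 to 38.8 CPM in WT and 12.85 to 15.98 CPM in 3xTg mice. App rose by 0.51 on the log2 scale (edgeR adjusted p = 0.000897), and whether reads of the human APP transgene were counted in it was not tested. Cntnap2, a neuronal adhesion protein, fell by 0.43 (edgeR adjusted p = 0.0398), and Adamts1, a secreted metalloproteinase, by 0.59 (edgeR adjusted p = 0.0669). The fifth, Scarb2, was one beyond the 4 that the rule names.

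Wwox, App, Cntnap2 and Adamts1 passed the threshold again in WT-D vs 3xTg-S, and Wwox, App and Adamts1 in WT-S vs 3xTg-S, in the same direction. Blnk was also called in WT-S vs 3xTg-S (log2 fold change -0.62, edgeR adjusted p = 0.176). The share called was 7.69% of the 52 in both, beside 5.69% and 4.26% of all tested genes. None of the 52 was a DEG in 3xTg-D vs 3xTg-S or in WT-D vs WT-S by edgeR, where only 0.904% and 0.188% of all tested genes were. An unadjusted p under 0.05 was seen for 3 and 2 of them, beside 6.33% and 2.25% of all tested genes. The interaction called 1 of them (1.92%, beside 0.595%), Echdc3 (log2 -1.48, edgeR adjusted p = 0.788), at group means of only 0.394 to 0.773 CPM. Cntnap2 was at 131 ± 18.1 CPM in 3xTg-D and 155 ± 8.35 CPM in 3xTg-S mice.

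**Figure D4:**
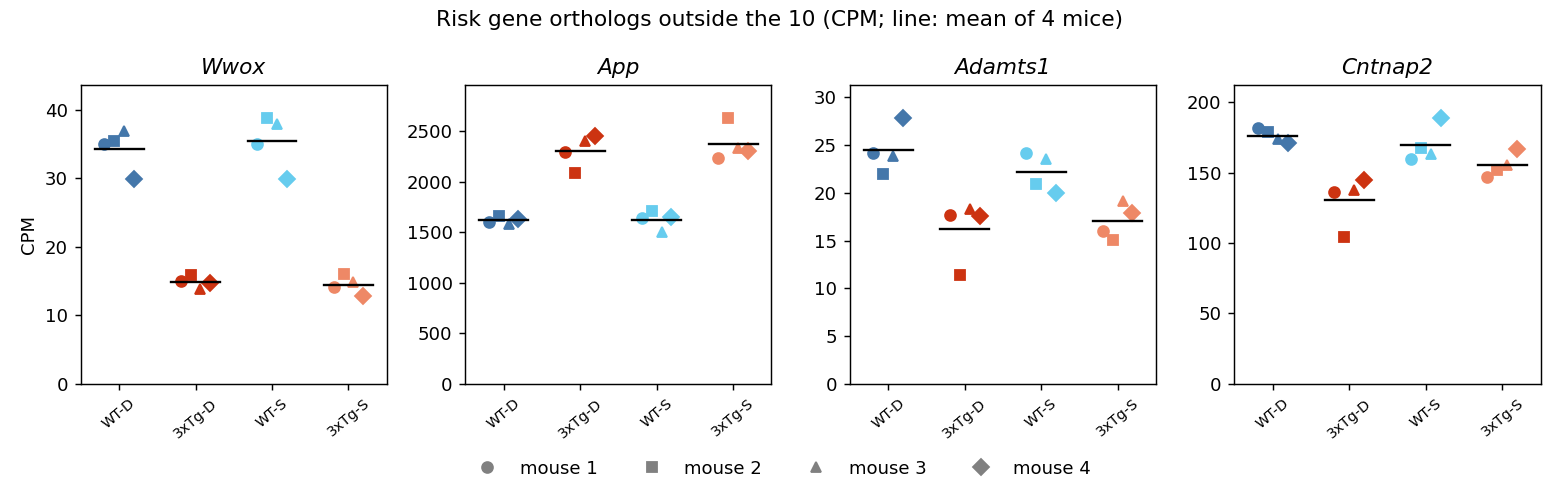
Wwox, App, Adamts1 and Cntnap2, 4 of the AD risk gene orthologs outside the 10, in every mouse in CPM on axes that start at 0, with a line at the mean of 4 mice and marker shapes for the replicate number. Wwox separates the genotypes with and without SCDi (34.4 and 35.4 CPM in WT-D and WT-S against 14.9 and 14.5 in 3xTg-D and 3xTg-S).

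The pathways around the members were read from lists of their genes, also chosen with earlier results of these data known and given as a description. Of 20 VPS10 receptors and retromer genes, the partners of Sorl1, 0 were DEGs in WT-D vs 3xTg-D by edgeR and 2 had an unadjusted p under 0.05, beside 4.91% and 12.6% of all tested genes. The comparison of WT-D with 3xTg-S called 2 of these 20 (10%, beside 5.69% of all tested genes): Sorcs1, a paralog of Sorl1, fell by 0.33 and Gga3, an adaptor of Golgi sorting, rose by 0.23 on the log2 scale (edgeR adjusted p = 0.0546 and 0.164). Sorcs1 was also low without SCDi, at 19.7 ± 1.20 CPM in WT-D, 14.3 ± 3.56 in 3xTg-D and 15.9 ± 0.597 in 3xTg-S (SD, n = 4 each). Its range was 10.2 to 18.1 CPM in 3xTg-D and 18.9 to 21.5 CPM in WT-D. Gga3 had means of 46.4 CPM in WT-D, 47.3 in 3xTg-D and 55.1 in 3xTg-S. Of 38 genes of clathrin endocytosis and dynamin, 1 (2.63%, beside 4.91% of all genes) was called: Hip1r, which ties coated pits to actin, rose by 0.25 in WT-D vs 3xTg-D (edgeR adjusted p = 0.0624). From the same list, WT-S vs 3xTg-S called Dnm3 (2.63%, beside 4.26%), which rose by 0.33 (edgeR adjusted p = 0.2025). WT-D vs 3xTg-S called Itsn1 (2.63%, beside 5.69%), which rose by 0.25 (edgeR adjusted p = 0.0717).

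Among 14 tested genes of lipoprotein and phospholipid export, 1 was called in WT-D vs 3xTg-D (7.14%, beside 4.91%): Pltp, the phospholipid transfer protein, fell from 36.5 ± 1.18 CPM in WT-D to 28.9 ± 0.699 in 3xTg-D (SD, n = 4 each; log2 fold change -0.34, edgeR adjusted p = 0.00669). It was lower still under SCDi, at 22.4 ± 1.79 CPM in 3xTg-S, where the 3xTg-D vs 3xTg-S log2 fold change of -0.37 passed the unadjusted threshold and not the adjusted one (edgeR adjusted p = 0.722). Pltp in WT-S was 32.6 ± 1.95 CPM. Of 26 tested genes of TREM2, SYK and phosphoinositide signalling, 1 was called in WT-D vs 3xTg-D (3.85%, beside 4.91%): Inppl1 (SHIP2), the paralog of Inpp5d, fell by 0.36 (edgeR adjusted p = 0.0360), from 26.9 ± 1.14 to 20.8 ± 1.86 CPM (SD, n = 4 each). Inpp5d itself had a log2 fold change of 0.23 (SE 0.24, edgeR adjusted p = 0.751).

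Of 26 focal adhesion genes, 2 were called (7.69%, beside 4.91%): Parva rose by 0.23 (edgeR adjusted p = 0.0469) and Lims2, a partner of kindlins at integrins, fell by 0.69 (edgeR adjusted p = 0.0610) in WT-D vs 3xTg-D. Lims2 was at 7.59 ± 0.999 CPM in WT-D and 4.68 ± 0.912 in 3xTg-D, and also fell in WT-S vs 3xTg-S (log2 fold change -0.63, edgeR adjusted p = 0.0329). In WT-D vs 3xTg-S, Lims2 and Itgb1 were called (7.69%, beside 5.69%). They fell by 0.78 and 0.22 on the log2 scale (edgeR adjusted p = 0.01345 and 0.160). Of 17 tested paralogs of the members, Inppl1 was the only DEG in WT-D vs 3xTg-D by edgeR (5.88%, beside 4.91%).

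The neighbourhood of each member was read within 2 Mb, with 4.91% of all tested genes called in WT-D vs 3xTg-D as the background. The nearest tested gene around Clu and Ptk2b, which lie 0.172 Mb apart on chromosome 14, to pass the threshold in WT-D vs 3xTg-D was Ephx2, an epoxide hydrolase located 0.0288 Mb from Ptk2b and 0.103 Mb from Clu (log2 fold change 0.39, edgeR adjusted p = 0.0752). Of the neighbours of Clu 2 of 28 passed (7.14%), of Ptk2b 2 of 29 (6.90%), of Cd2ap 3 of 18 (16.7%), of Fermt2 1 of 23 (4.35%) and of Abca7 1 of 136 (0.735%). Around Picalm, 4 of 27 neighbours passed (14.8%), with Me3 0.276 Mb away (log2 fold change -0.69, edgeR adjusted p = 0.00932), and around Bin1 4 of 28 passed (14.3%), Lims2 among them at 0.419 Mb. Around Sorl1, 1 of 25 did (4%), Thy1 at 1.92 Mb (log2 fold change 1.78, edgeR adjusted p = 3.74e-07), whose regulatory element is part of both transgenes. None of 20 neighbours of Plcg2 or of 38 of Inpp5d passed by edgeR. The Sorl1 exons share 185 bases with the antisense gene Gm16214 and those of Bin1 256 bases with A830052D11Rik on the opposite strand, and since the strand setting of the counting was not given, reads there cannot be assigned to one gene.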

How the data were processed

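Hippocampal RNA of 16 mice was analysed. The authors trimmed reads with Trimmomatic 0.35, aligned them with STAR 2.5.1b to GRCm38 with Gencode annotation, and deposited raw counts per gene without normalization. Use of molecular identifiers and the strand setting of counting are not given in the sources used here. A shared protocol text names inhibitor ab142089, while titles and treatment labels name the Cayman inhibitor, as taken here. Exon lengths came from Gencode M21 on the same build.

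Genes were filtered by filterByExpr of edgeR 4.0.16 in R 4.3.3 (minimum count 10, minimum total 15; 16475 of 33942 genes with a count). Libraries were normalized by TMM, and pairs of groups were tested by the quasi-likelihood test (two-sided), with an interaction on all 16 mice. DEGs had an unadjusted p of 0.01 or less. Adjusted p-values are Benjamini-Hochberg values over all tested genes. CPM per mouse used TMM library sizes, and log2 CPM a prior count of 2. Replicate libraries differed by more than counting noise. Fits were tested on simulated data. DESeq2 1.42.0 and other alternatives are given in the closing section.

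The members and lists were chosen with earlier results of these data known. From each list, at most 4 DEGs per comparison, those of smallest p, were named. Likeness was the highest Pearson r over the 16 mice, with 5 genes for Sorl1 and 1 for each other member.

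Replicate numbers in the labels gave a possible pairing. Deviations from group means of same-numbered mice correlated at 0.114 to 0.340 in WT-D vs WT-S. Whether the numbers mark a pairing was not tested. With the replicate block 0 members were called in WT-D vs WT-S, as without it.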

Additional observations from a re-analysis of the deposited data

Results flagged for a closer look

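Sorl1 in WT-S mouse 4 was 498.3 CPM, far from the other 3 mice of the group at 363.2 to 384.1 CPM, with a gap of 0.845 of the group's range beyond Dixon's 95% critical value. It was 1 such value in 40 groups of 4, where chance gives about 2.

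The effect of SCDi on Clu differed between genotypes by -0.394 on the log2 scale in the interaction term, past an unadjusted threshold of 0.05 and not the correction (edgeR adjusted p = 0.788). Over the alternative fits with every mouse kept, this difference ran from -0.43 to -0.19. The 3xTg-D vs 3xTg-S log2 fold change of Clu ran from -0.34 to -0.19. With the share of reads outside genes as covariate, 0 members had an unadjusted edgeR p under 0.05 in either comparison. Of the 4 3xTg-S mice, 3 lay below every 3xTg-D mouse, and 2 of the 4 WT-S mice lay above every WT-D mouse.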

How the results depend on the processing

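Of 60 member results (10 genes in 6 comparisons), the 1090 values under the alternatives kept direction and side of the threshold in 1010, passed the threshold in 10 and changed sign in 70. The count of members called stayed at 0 in WT-D vs 3xTg-S under every alternative run. In WT-D vs 3xTg-D it was 1 (Fermt2) with no filter on low counts and with the choroid plexus score as covariate, and 0 to 1 with a mouse left out. With no filter it was 1 (Clu) in 3xTg-D vs 3xTg-S. In WT-D vs WT-S it was 0 to 2 with a mouse left out. The cause of these moves was not tested.

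With the replicate number as block, members called were 1 in WT-S vs 3xTg-S and 1 in 3xTg-D vs 3xTg-S (Clu in both, at -0.22 and -0.30), 2 in the interaction (Clu -0.38 and Abca7 0.54), and 0 in the others, and edgeR called no member at the adjusted threshold of 0.05. DEGs over all genes went from 149 to 1133 in 3xTg-D vs 3xTg-S, 702 to 1339 in WT-S vs 3xTg-S, 31 to 115 in WT-D vs WT-S and 98 to 624 in the interaction. Outside WT-D vs WT-S not every same-numbered pair was alike: the lowest same-number correlation ran from -0.101 (WT-S vs 3xTg-S) to 0.0616 (WT-D vs 3xTg-S). Same-number means were still higher than different-number means: 0.241 and -0.084 for WT-S vs 3xTg-S, 0.213 and -0.066 for 3xTg-D vs 3xTg-S. They were 0.1755 and -0.058 for WT-D vs 3xTg-S, beside 0.217 and -0.073 for WT-D vs WT-S. Only WT-D vs 3xTg-D had means close together, 0.041 and -0.010. Whether the numbers mark a pairing in any of the comparisons was not tested, and the main fits left the number out.

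With the share of reads outside genes as covariate in WT-D vs 3xTg-D, values that kept their sign also moved: Sorl1 from -0.26 to -0.15, Clu from 0.20 to 0.0255, Abca7 from -0.20 to -0.00065 and Plcg2 from -0.20 to -0.40. Signs changed as follows. With that covariate the values were -0.0885 for Inpp5d in WT-D vs 3xTg-D; -0.0670 for Sorl1, 0.0130 for Picalm and -0.0926 for Cd2ap in WT-S vs 3xTg-S; -0.02995 for Bin1 and 0.0052 for Picalm in 3xTg-D vs 3xTg-S; -0.00036 for Clu and 0.0203 for Cd2ap in WT-D vs WT-S; -0.0031 for Abca7 in WT-D vs 3xTg-S; and -0.0203 for Cd2ap and 0.17 for Inpp5d in the interaction. With the choroid score they were 0.0106 for Picalm in WT-D vs 3xTg-D, -0.0522 for Sorl1 and 0.0359 for Picalm in WT-S vs 3xTg-S, and -0.016 for Bin1 in 3xTg-D vs 3xTg-S. Bin1 in 3xTg-D vs 3xTg-S was -0.00028 by DESeq2 with DEGES size factors, -0.0206 with no filter and -0.0053 with at least 10 counts in every mouse. With no filter Picalm was -0.016 in the interaction, and in one fit of 16 mice Picalm was 0.0128 in WT-S vs 3xTg-S and Cd2ap 0.0088 in WT-D vs 3xTg-S.

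With each mouse left out in turn, signs changed with ranges of -0.0762 to 0.20 for Abca7, -0.0889 to 0.0938 for Cd2ap, -0.26 to 0.16 for Inpp5d in WT-D vs 3xTg-S; -0.0399 to 0.0286 for Bin1, -0.0303 to 0.00428 for Picalm in 3xTg-D vs 3xTg-S; -0.0749 to 0.0761 for Cd2ap, -0.37 to 0.0498 for Inpp5d, -0.0441 to 0.0875 for Ptk2b in WT-D vs WT-S; -0.0844 to 0.12 for Cd2ap, -0.0222 to 0.0443 for Fermt2, -0.0239 to 0.0253 for Picalm, -0.15 to 0.00698 for Plcg2, -0.0280 to 0.10 for Ptk2b, -0.0636 to 0.12 for Sorl1 in WT-S vs 3xTg-S; -0.39 to 0.0851 for Inpp5d, -0.0189 to 0.0444 for Picalm, -0.19 to 0.27 for Plcg2, -0.0230 to 0.11 for Ptk2b in the interaction; -0.0194 to 0.0197 for Picalm, -0.34 to 0.12 for Plcg2, -0.0254 to 0.0337 for Ptk2b in WT-D vs 3xTg-D.

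Depth was lowest for Plcg2, with 96 to 285 reads per mouse, and its intervals were among the widest.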
